A study of Mus musculus with 6 samples.

Results

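The troponin complex switches heart muscle contraction on and off with calcium, and the promoters of its cardiac genes were measured here in 6 regions, with 2 regions each for Tnnt2, Tnni3 and Tnnc1. The members were all CpG sites listed for these regions with at least 10 calls in every sample, a rule that uses coverage and no methylation level. All 44 of the 44 listed sites met this minimum, out of 314 tested CpG sites in the whole panel of 15 genes. Tnnt2 encodes cardiac troponin T, which ties the complex to tropomyosin on the thin filament. Tnni3 encodes cardiac troponin I, the subunit that inhibits contraction when calcium is low, and is the form that takes over from a slow skeletal form as the heart matures. Tnnc1 encodes the calcium-binding subunit troponin C of heart and slow skeletal muscle. CpG methylation is a mark on cytosine that DNA methyltransferase 1 (DNMT1) copies onto the new strand after replication, so dividing cells with less of the enzyme can lose it. Methylation of a promoter often goes with a silent gene, but promoters with few CpG sites can be methylated and active.

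The cells were primary cardiomyocytes of CD-1 mice, an outbred strain, taken from ventricles on embryonic day 13.5, with the ventricles of each litter pooled. After culture they received 12 nM of either a pool of 4 siRNAs against DNMT1 or the AllStars negative siRNA, in 3 samples each, and all were sorted for the surface protein VCAM1 and collected at 72 h. The labels name no genetic change in any group. Sorted cells can still include other cell types, and tissue was pooled within litters, so each value averages cells, embryos and alleles. The transcripts of Dnmt1, of the 3 troponin genes and of marker genes for the cell type were not analysed here, so neither the knockdown nor the purity could be checked from these files. In bisulfite sequencing unmethylated cytosine is read as T and methylated cytosine as C, and the methylation level is the percent of calls read as C. The 6 libraries held 26793215 to 32253280 calls, of which 31.5% to 40.7% came from the troponin regions. The troponin CpG sites had 92 to 98453 calls each, and their median per library was between 19304 and 25771. The 95% Wilson interval of a site in a library was 0.209 to 20.0 points wide, with a median of 1.11 points. The amplicons carried no molecular identifiers, so these intervals cover counting error only.

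All 6 regions were placed on the mouse build GRCm38.p6, with every listed cytosine matched, and distances are given from the annotated transcription start of the principal transcript, negative upstream. Tnnt2 region 2 (chromosome 1, 135835143 to 135835488) lay from −1211 to −866 bp, and Tnnt2 region 1 (chromosome 1, 135835591 to 135836032) lay from −763 to −322 bp, both intergenic. Tnni3 region 1 (chromosome 7, 4522271 to 4522698, minus strand) ran from −170 to 257 bp and so crossed the start. Of its 7 sites, 3 lay upstream, 3 in the 5′ untranslated part of the first exon and the last in the intron behind it, which is coding in another annotated transcript. Tnni3 region 2 (chromosome 7, 4522849 to 4523283, minus strand) lay from −755 to −321 bp. Of its 7 sites, 5 lay in the last exon of Dnaaf3, a gene for an assembly factor of ciliary dynein that ends next to Tnni3, and all 7 lay in an intron of a longer Tnni3 transcript that starts farther upstream. Tnnc1 region 2 (chromosome 14, 31206937 to 31207341) lay from −1375 to −971 bp and Tnnc1 region 1 (chromosome 14, 31207339 to 31207692) from −973 to −620 bp. Both Tnnc1 regions lay inside Nisch-211, a non-coding transcript of the opposite strand, and 4 of the 9 sites of region 2 lay in its exon. All 6 regions were poor in CpG, with 1.34 to 2.56 sites per 100 bp and an observed to expected ratio of 0.199 to 0.383.

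The sequences below are shown because they hold the sites that the results turn on. They come from RefSeq GRCm38.p6, are written 5′ to 3′ on the strand of the gene, and carry in capitals the measured CpG sites that they hold whole. The Tnni3 stretch upstream of the start ends, in lower case, on the C of the site at −1 bp, whose G is the first base of the exon. The 300 bases of Tnnt2 region 2 (chr1:135835162-135835461, plus strand) and of Tnnc1 region 1 (chr14:31207336-31207635, plus strand) hold all sites of these regions, among them the largest drop of each gene. For Tnni3 the stretch upstream of the start (chr7:4522529-4522694), the part of region 2 outside the Dnaaf3 exon (chr7:4522849-4522932) and the site with the largest drop (chr7:4523221-4523248) are given, all on the minus strand. The Tnnc1 region 2 stretch (chr14:31206966-31207060, plus strand) spans a change from low to high methylation, and the Tnnt2 region 1 stretch (chr1:135835772-135835801, plus strand) spans a pair of close sites. The last 2 stretches were chosen after their values were seen.
Tnnt2 region 2: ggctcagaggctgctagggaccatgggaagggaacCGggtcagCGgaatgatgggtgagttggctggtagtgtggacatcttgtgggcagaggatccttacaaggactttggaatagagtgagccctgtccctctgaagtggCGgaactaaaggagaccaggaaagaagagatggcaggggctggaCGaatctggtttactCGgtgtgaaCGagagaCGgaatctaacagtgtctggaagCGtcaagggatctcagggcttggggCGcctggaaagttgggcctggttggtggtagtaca
Tnnc1 region 1: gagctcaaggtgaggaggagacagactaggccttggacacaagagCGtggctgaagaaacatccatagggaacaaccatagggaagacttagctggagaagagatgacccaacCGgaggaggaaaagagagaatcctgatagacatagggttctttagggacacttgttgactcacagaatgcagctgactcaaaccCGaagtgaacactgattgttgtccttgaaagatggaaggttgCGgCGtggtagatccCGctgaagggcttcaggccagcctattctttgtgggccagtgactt
Tnni3 region 1, upstream of the start: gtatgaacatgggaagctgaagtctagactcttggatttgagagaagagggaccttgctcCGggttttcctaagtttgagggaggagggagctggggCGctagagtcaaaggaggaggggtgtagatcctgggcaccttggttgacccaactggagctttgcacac
Tnni3 region 2, outside the Dnaaf3 exon: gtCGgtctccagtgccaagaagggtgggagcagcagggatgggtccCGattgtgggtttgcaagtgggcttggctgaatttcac
Tnni3 region 2, largest drop: gcccacctgcatgCGgttttactctgCG
Tnnc1 region 2, low to high: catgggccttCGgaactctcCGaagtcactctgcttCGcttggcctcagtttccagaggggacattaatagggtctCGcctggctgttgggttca
Tnnt2 region 1, close pair: gagttacttcCGccagCGgaaggaaggagg

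With negative siRNA most troponin CpG sites were methylated, at a median of 71.8% and between 1.01% and 96.2%. Of the 44 sites, 10 were above 90%, 14 between 70% and 90%, 8 between 50% and 70%, 9 between 5% and 50%, and 3 below 5%. The 3 lowest sites were neighbours at the far end of Tnnc1 region 2. In Tnnt2 region 1 the level ran from 91.5% at −673 bp to 11.6% at −347 bp, and the lowest Tnni3 region 1 site, at 32.7%, lay at −1 bp, immediately before the start. Tnnc1 region 1 was the most methylated region.

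After DNMT1 siRNA every one of the 44 troponin sites had a lower mean, and 40 of them were called lower while 0 were called higher. A call needed an adjusted p under 0.05 from logistic regression on the C and T counts, adjusted by Benjamini-Hochberg over all 314 sites, and a drop of pooled methylation above 5 percentage points. Over all 314 sites the percent called lower was 37.6, and over the 167 sites that started above 5%, which alone can fall by 5 points, it was 70.7. The pooled differences of the 40 called sites lay between −25.9 and −5.21 points around a median of −13.6, and their largest logistic adjusted p was 1.46e-07. Between replicates the median SD of these sites was 1.31 points for negative siRNA and 3.30 points for DNMT1 siRNA.

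In 40 of the 44 sites all 3 DNMT1 siRNA samples were below all 3 negative siRNA samples, against 43.9% of the 314 sites and 65.9% of the 167 above 5%. No troponin site was separated in the other direction, as 1.59% of the 314 sites were. Both a call and separate replicates were found at 38 sites, against 30.6% of the 314. The logistic regression treats each call as an independent molecule, and at troponin sites the variance between replicates was a median of 63.1 times that of counting alone. A quasi-binomial F test that takes this spread from the replicates called 26 of the 44 sites lower, with adjusted p between 0.00586 and 0.0485. Over all sites it called 19.4%, and over the 167 above 5% it called 36.5%. At an unadjusted p under 0.05 it passed 38, against 37.3% of the 314. limma, run on the log2 ratio of C to T counts, called 34 lower, which included all 26. This was against 23.2% of all sites and 43.7% of the 167 above 5%. Neither test called a troponin site higher. The 4 sites that were not called were the 3 low sites of Tnnc1 region 2 and the Tnni3 region 2 site at −636 bp.

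**Figure D1:**
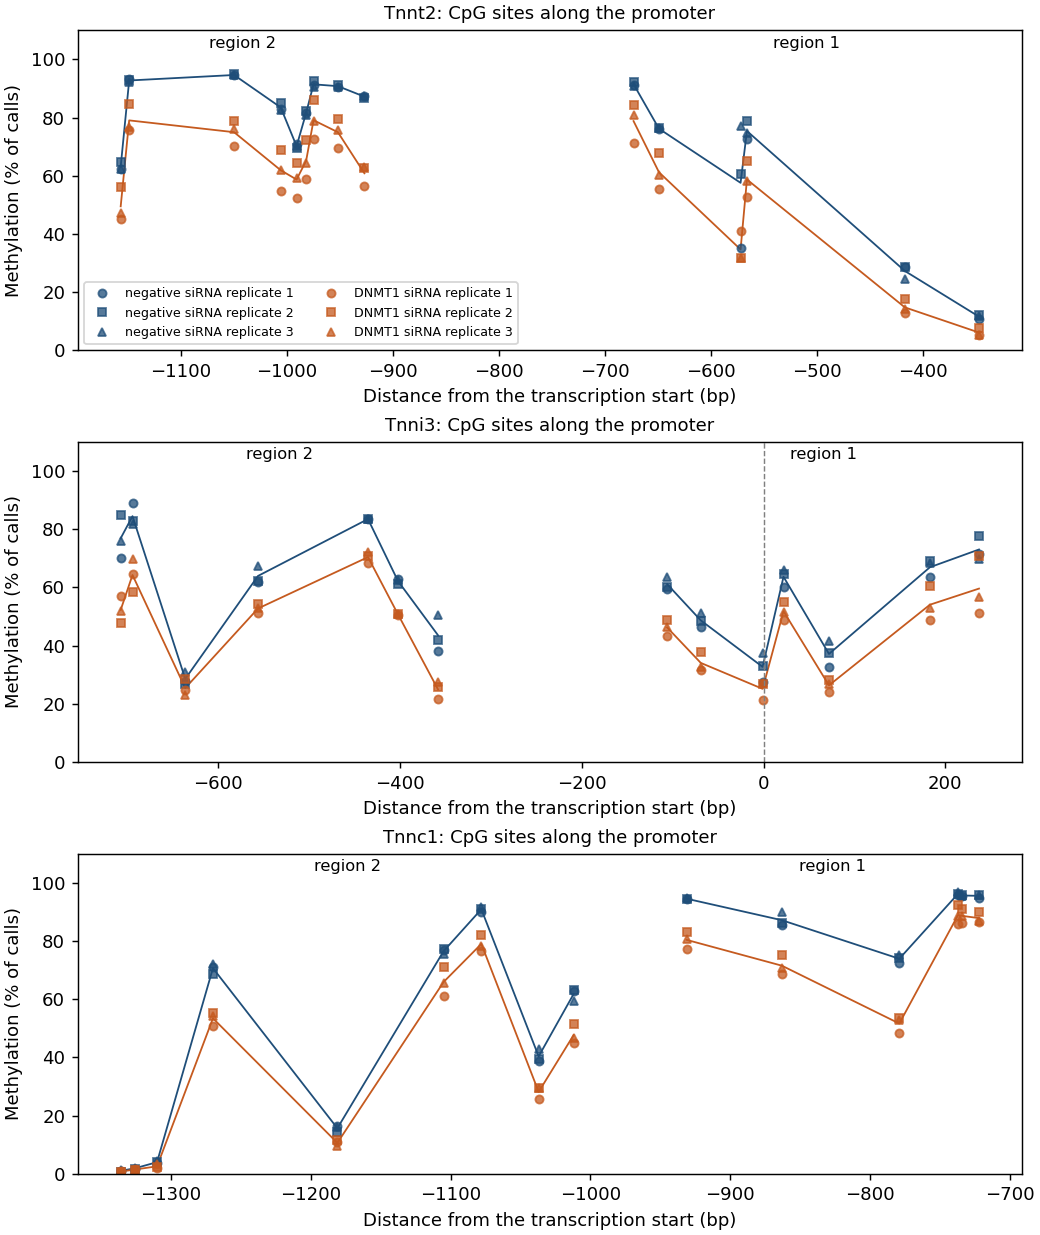
Methylation of every troponin CpG site, as the percent of calls read as C, against its distance in bp from the transcription start (dashed line where it lies inside the plot), with 1 point per library and lines through the mean of 3 replicates. The lines of the DNMT1 siRNA libraries lie below those of the negative siRNA libraries at all 44 sites.

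The order of the 44 site means in the groups had a Spearman correlation of 0.980, given as a description over sites that share libraries. The highest site of Tnnt2 region 2 was the one at −1050 bp with negative siRNA (94.6%). With DNMT1 siRNA it was the one at −975 bp (79.1%), barely above the one at −1149 bp (79.0%). Among the negative siRNA means the largest step between neighbours was in Tnnc1 region 2, a rise of 66.7 points over the 40 bp from −1310 to −1270 bp, which was 50.9 points in the DNMT1 siRNA means. Among the DNMT1 siRNA means the largest was a rise of 55.3 points from −1181 to −1105 bp of the same region.

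The regional means, taken over the CpG sites of a region without weighting, were lower after DNMT1 siRNA in all 6 regions with no overlap between replicates. Between 74.9% and 86.4% of the negative siRNA level remained. Tnnt2 region 2 had the largest drop in points. Its negative siRNA samples were at 83.8%, 84.4% and 83.5% and its DNMT1 siRNA samples at 61.8%, 72.6% and 67.0%, a change from 83.9% ± 0.495 to 67.1% ± 5.40 (SD, n = 3). Tnnc1 region 2 had the smallest, from 40.3% ± 0.275 to 32.1% ± 1.70 (SD, n = 3). Its 9 sites include the 3 that started below 5%.

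**Figure D2:**
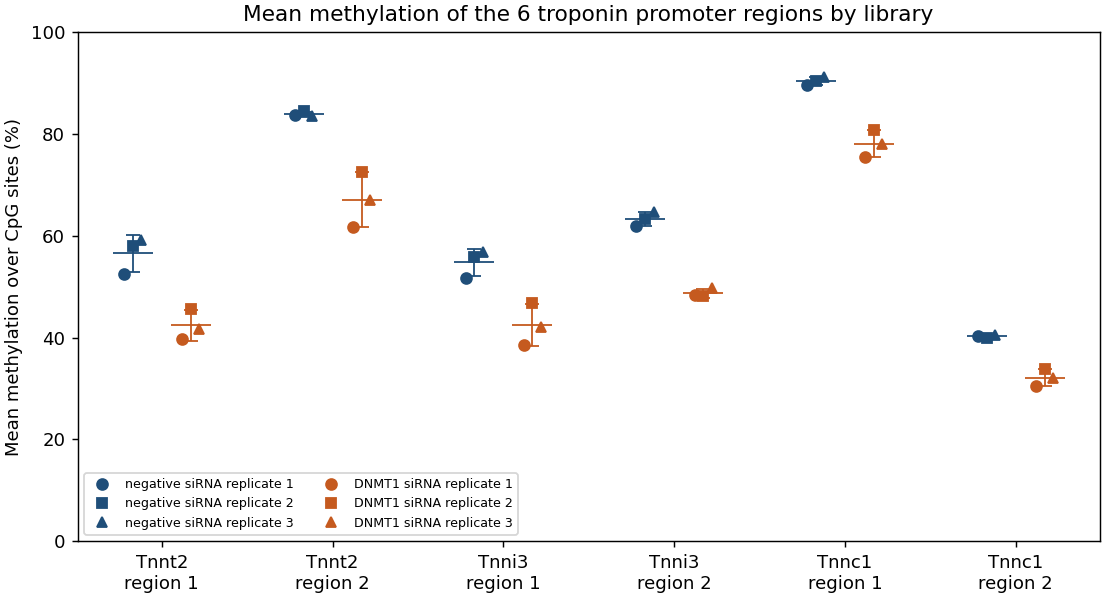
Mean methylation over the CpG sites of each troponin region in every library, in percent, with the mean (horizontal bar) and SD (error bar) of 3 replicates per group. In each region the 3 DNMT1 siRNA libraries lie below the 3 negative siRNA libraries, with differences of −16.8 to −8.13 points.

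DNMT1 siRNA replicate 1 had the lowest level of its group at 36 of the 41 troponin sites above 5%, and replicate 2 the highest at 34. The same order stood at 89 and 90 of the 126 such sites of the other 12 genes. Without DNMT1 siRNA replicate 1 the logistic regression called 40 troponin sites, the quasi-binomial test 11 (9.87% of all sites) and limma 19 (13.1%). Without DNMT1 siRNA replicate 2 the quasi-binomial test called 27 (16.2% of all sites) and limma 34 (22.3%). Without DNMT1 siRNA replicate 3 they called 7 (8.6%) and 17 (11.5%). Without negative siRNA replicate 1, 2 or 3 the quasi-binomial test called 1, 5 and 2 troponin sites (2.55%, 7.01% and 3.18% of all sites). In the same order limma called 18, 21 and 16 (10.8%, 16.9% and 10.2%). With 5 libraries the quasi-binomial test has fewer degrees of freedom for the spread, also in the fit that called 27. It called 2.55% to 16.2% of all sites. Why its counts differed with the library left out was not tested. The logistic counts, 38 to 40 with any library left out, take each call as independent and do not measure the spread between replicates. Leaving out a library moved the difference of Tnnt2 region 2 between −19.5 and −14.1 points.

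In Tnnt2, which ties the regulatory complex to the thin filament, all 15 sites were called lower and 14 had separate replicates, against 7 called in the quasi-binomial test and 13 in limma. In region 2, the farther one, the differences of the 9 sites lay between −25.9 and −11.2 points. The site at −927 bp (position 135835427), nearest to the start in this region, had the largest drop of all 44. It was at 87.4%, 86.7% and 87.4% with negative siRNA and at 56.6%, 62.7% and 63.2% with DNMT1 siRNA. The replicates of each group lay far closer together than the groups, and its quasi-binomial adjusted p was 0.00586. The site at −1050 bp, with the most calls at 63631 to 98453 per library, went from 94.5%, 94.8% and 94.5% to 70.1%, 78.8% and 76.0% (quasi-binomial adjusted p = 0.0113). The smallest drop in region 2 was at −991 bp, from 70.9%, 69.6% and 70.1% to 52.3%, 64.5% and 59.3%. The DNMT1 siRNA samples there were spread about as widely as the groups were apart, and the quasi-binomial test did not call the site (adjusted p = 0.101).

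Tnnt2 region 1 was called lower at all 6 sites, and its mean went from 52.4%, 58.1% and 59.2% to 39.7%, 45.7% and 41.8%, or from 56.6% ± 3.65 to 42.4% ± 3.03 (SD, n = 3). The site at −347 bp, nearest to the gene, was the least methylated of the Tnnt2 sites, at 11.0%, 12.1% and 11.8%, and fell to 5.1%, 7.8% and 5.4%. It kept 52.9% of its level, the smallest share among the troponin sites above 5%, though its difference of −5.45 points was the smallest of the region (quasi-binomial adjusted p = 0.0356). The CpG at −572 bp (position 135835782) had the largest pooled drop of the region, with a difference of −24.4 points, and its replicates overlapped. It read 35.1%, 60.5% and 77.1% with negative siRNA and 40.9%, 31.6% and 31.6% with DNMT1 siRNA. Negative siRNA replicate 1 was below DNMT1 siRNA replicate 1, so the group difference was within the spread of the replicates, and the quasi-binomial adjusted p was 0.244. Leaving out a library moved this difference between −35.1 and −13.5 points, the latter without negative siRNA replicate 3. The CpG 6 bp downstream, at −566 bp, read 72.6%, 78.8% and 74.7% against 52.8%, 65.1% and 58.3% in the same libraries, a difference of −16.4 points without overlap (quasi-binomial adjusted p = 0.0533, limma 0.0245).

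**Figure D3:**
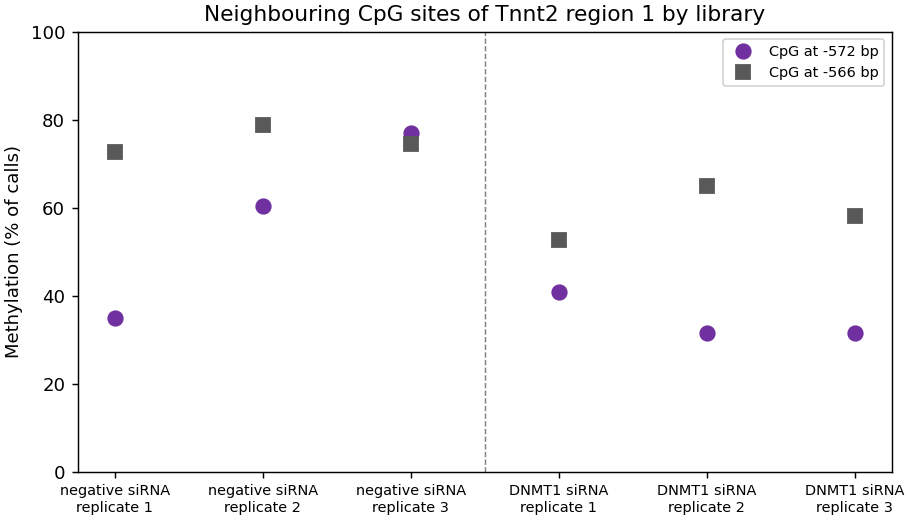
Methylation in percent of calls at the CpG sites at −572 bp and −566 bp of Tnnt2 region 1, with 1 point per site and library. The site at −572 bp ran from 35.1% to 77.1% among the negative siRNA libraries and overlapped the DNMT1 siRNA libraries, whereas the site 6 bp away did not overlap.

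In Tnni3, the inhibitory subunit, 13 of 14 sites were called lower and 12 had separate replicates, and both the quasi-binomial test and limma called 9. Region 1, which crosses the start, went from 51.7%, 55.8% and 56.9% to 38.5%, 46.9% and 42.1% (54.8% ± 2.74 to 42.5% ± 4.22, SD, n = 3), and the quasi-binomial test called 3 of its 7 sites. Its largest drop was at −106 bp, from 59.6%, 60.1% and 63.7% to 43.4%, 48.9% and 46.4%, a gap wider than the spread in either group (quasi-binomial adjusted p = 0.0199). The site at −1 bp had the smallest drop of the region, from 27.7%, 32.9% and 37.5% to 21.4%, 26.9% and 27.2%. Its groups nearly touched, and neither the quasi-binomial test (adjusted p = 0.189) nor limma (0.161) called it. Its difference of −7.67 points was −4.96 points without negative siRNA replicate 3. The sites inside the transcript, from 22 to 237 bp, had differences of −13.9 to −11.0 points. Among them only the site at 22 bp was called by the quasi-binomial test and limma. The difference of −13.9 points was at 237 bp, where libraries had 175 to 286 calls and the replicates overlapped (quasi-binomial adjusted p = 0.193).

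Tnni3 region 2 went from 61.9%, 63.4% and 64.6% to 48.3%, 48.1% and 49.7% (63.3% ± 1.37 to 48.7% ± 0.869, SD, n = 3), with 6 of 7 sites called in the logistic, quasi-binomial and limma tests alike. The largest drop was at −707 bp, in the Dnaaf3 exon, where 70.0%, 84.9% and 75.8% with negative siRNA stood against 57.1%, 47.8% and 51.9%. This site also had the fewest calls of all, 92 to 158 per library, and the Wilson interval of the lowest library was 37.9% to 57.9%. Its quasi-binomial adjusted p was 0.0485. The site at −636 bp read 27.8%, 27.0% and 31.0% against 24.6%, 28.7% and 22.9%, so its groups overlapped, and its difference of −3.66 points was not called at 115 to 192 calls per library (logistic adjusted p = 0.246). The difference was −2.12 points without DNMT1 siRNA replicate 3 and −2.39 points without negative siRNA replicate 3. The site at −694 bp, with 106 to 172 calls, had a difference of −19.0 points and was called. The site nearest to the start, at −358 bp, lies outside the Dnaaf3 exon and had a difference of −18.3 points, from 38.2%, 42.1% and 50.5% to 21.8%, 25.6% and 27.5%. It kept 57.3% of its level (quasi-binomial adjusted p = 0.0412). Between these, the site at −435 bp read 83.5% in all 3 negative siRNA samples and 68.2%, 70.9% and 72.1% with DNMT1 siRNA.

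In Tnnc1, the calcium-binding subunit, 12 of 15 sites were called lower, which were all 12 that started above 5%. The 12 had separate replicates, and the quasi-binomial test called 10 and limma 12. Region 1 was the most methylated troponin region and kept the largest share. It went from 89.7%, 90.4% and 91.3% to 75.4%, 80.8% and 78.1% (90.5% ± 0.802 to 78.1% ± 2.70, SD, n = 3). Its largest drop, at −779 bp, was from 72.3%, 74.0% and 75.2% to 48.5%, 53.6% and 52.7%, and the gap between the groups was far wider than the spread in either (quasi-binomial adjusted p = 0.00700). The 3 sites from −737 to −722 bp were all above 95% with negative siRNA and had differences of −7.72 to −6.97 points. At −734 bp, the smallest drop, the values were 95.5%, 95.9% and 95.4% against 86.1%, 90.9% and 88.7% (quasi-binomial adjusted p = 0.0283). At −722 bp, the nearest to the start, they were 94.8%, 95.8% and 95.8% against 86.6%, 90.1% and 86.8%.

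Tnnc1 region 2 held the widest range of levels. Its first 3 sites, at −1336, −1326 and −1310 bp in the exon of Nisch-211, had negative siRNA means of 1.01%, 1.84% and 3.98%, and differences of −0.299, −0.434 and −1.39 points. At −1336 bp the values were 1.1%, 0.7% and 1.2% against 0.8%, 0.7% and 0.7%, and the groups overlapped, while at the other two they did not. A further 40 bp on, at −1270 bp, the values were 71.2%, 68.8% and 71.9% against 50.8%, 55.2% and 54.3%, the largest drop of the region (quasi-binomial adjusted p = 0.00834). The remaining sites dipped to 15.6% at −1181 bp and rose to 90.9% at −1078 bp with negative siRNA, and all 5 were called lower. The nearest to the start, at −1012 bp, went from 62.8%, 63.0% and 59.4% to 44.9%, 51.3% and 46.7%.

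The regions of each gene were compared within the samples, by the mean of region 2 minus that of region 1. In Tnnt2 this gap went from 27.3 ± 3.67 points in the negative siRNA samples to 24.7 ± 2.45 in the DNMT1 siRNA samples, and in Tnni3 from 8.55 ± 1.47 to 6.23 ± 4.48 (SD, n = 3). In both the replicates overlapped, with an exact permutation p of 0.5 each. In Tnnc1 the gap was −50.2 ± 0.666 points and became −46.0 ± 0.998, with no overlap, so that region 1 lost 4.20 points more than region 2. The two-sided exact permutation p was 0.1, the smallest that 3 against 3 samples allow, and 3 such comparisons were made. As a share of the negative siRNA level the direction turned: region 2 minus region 1 in the share that remained was −6.56 percentage points, with the same exact permutation p of 0.1. The mean of Tnnc1 region 2 includes its 3 sites that started below 5%, whose pooled differences were only −1.39 to −0.299 points. Over the Tnnc1 sites above 5%, 6 in each region, the median pooled difference was −12.0 points in region 2 and −10.9 in region 1.

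How much a site lost was related to where it started, described over the 41 troponin sites above 5%. The Pearson correlation of the pooled difference with the negative siRNA level was −0.343 and that of the remaining share with the level was 0.660. The difference and the share are both computed from that level, so part of each correlation can be built in. From 5% to 50% the median difference was −11.0 points and 69.7% of the level remained. From 50% to 70% the difference was −13.3 points and 79.6% remained. From 70% to 90% the difference was −16.3 points and 78.9% remained, and above 90% it was −12.1 points and 86.3%. Distance to the start had a correlation of 0.132 with the difference. By the base after the CpG, the median remaining share was 74.2% for CGA (7 sites), 76.4% for CGC (10), 78.8% for CGT (8) and 81.8% for CGG (16).

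**Figure D4:**
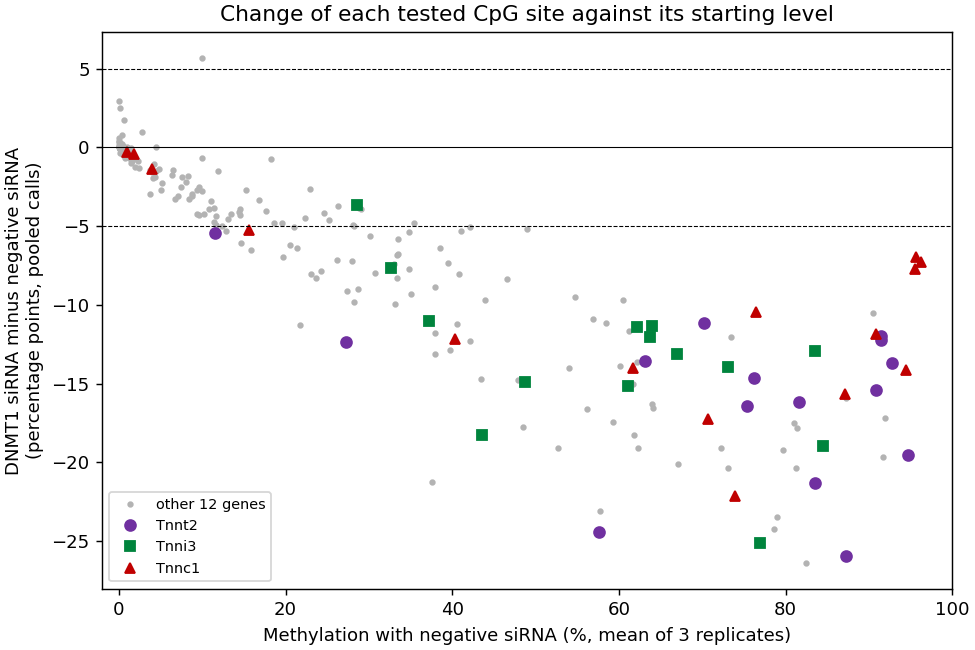
Pooled difference of methylation, DNMT1 siRNA minus negative siRNA in percentage points, against the negative siRNA level of each of the 314 tested CpG sites, for the 3 troponin genes and the other 12 genes of the panel. The dashed lines mark the 5 point threshold, and the troponin sites lie between −25.9 and −0.299 points.

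Troponin sites and the sites of the other genes differed in starting level. Of the troponin sites 41 of 44 started above 5%, against 126 of 270 in the other genes. Above 50% all 32 troponin sites and all 32 other sites were called lower. From 5% to 50%, 8 of 9 troponin sites and 46 of 94 other sites were called. The starting levels differed within this range too, with medians of 32.7% at the troponin sites and 22.1% at the others. A call needs a drop above 5 points, so these counts are not at a like start. The median remaining share there was 69.7% and 76.0%. Between 70% and 90% the median remaining share was 78.9% at the 14 troponin sites and 74.0% at the 11 others. The myosin heavy chain genes Myh6, Myh7 and Myh7b, the motor proteins of the sarcomere, had 23 of 27 sites called, and their regional differences were −22.0 to −3.38 points against −16.8 to −8.13 in the troponin regions. No test set the troponin genes apart from these.

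Searched on both strands in a 300-base window of each region, 7 short motifs were counted. CATTCC, the M-CAT element known from the troponin T promoter, was found in 1 place each in Tnnt2 region 2 and Tnnc1 region 2, and 14.7% of all RefSeq promoters of that length hold it. The Tnnt2 match, on the opposite strand, takes in the G of the measured CpG at −1149 bp. GATAAG, the GATA motif, was found in 2 places in Tnni3 region 1 and in 1 in Tnni3 region 2, against 7.44% of promoters. The matches of region 1 lay downstream of the start, in the first exon, and that of region 2 lay in the Dnaaf3 exon. The E-box CANNTG was found in 4 regions, against 72.3% of promoters. The TATA box letters TATAAA (13.6% of promoters) were not in these windows, nor were the GC box letters GGGCGG (35.7%). The form CACGTG (7.15%), which is also an E-box, was not in them either. ACGT, which is also the middle of that form, is held by 30.9% of promoters and holds a CpG by its letters, contained measured sites at −417 bp in Tnnt2 and −1037 bp in Tnnc1. Tnnt2 −417 bp went from 28.6%, 28.7% and 24.6% to 12.8%, 17.5% and 14.1%, and kept 54.2% of its level. Tnnc1 −1037 bp went from 38.9%, 39.3% and 42.8% to 25.7%, 29.3% and 29.3%, and kept 69.7%.

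Cytosines outside CpG give the background of conversion and sequencing error. In the troponin regions 0.184% to 0.223% of these calls were read as C in a library. In Tnnt2 region 1 and Tnni3 region 1 the share was slightly higher with DNMT1 siRNA, by 0.0273 and 0.0259 points with no overlap, and in the other 4 regions the groups overlapped. Correcting for it left 40 sites called lower.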

How the data were processed

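Genomic DNA was bisulfite-converted, amplified by PCR, sequenced on a MiSeq and aligned by the authors with Bismark to the amplicon sequences. FastQC and Bowtie2 are also named in the submitters' processing notes, with mm10, and no versions are given in the sources used here. The deposited files hold, per cytosine, the count of calls (coverage) and the shares of C and of T among them in percent. Methylated counts were recovered as coverage times percent, and lay within 4.04e-06 of a whole number. Handling of PCR duplicates is not stated, and copied molecules make p-values from counts too small.

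Groups and replicate numbers came from the sample titles. No label says that the 3 samples of a group came from separate litters. The quasi-binomial, limma and permutation p-values therefore measure the spread between these samples only. The logistic p-values do not take in that spread. Sites needed at least 10 calls in every sample. The logistic regression used a likelihood-ratio test, following the study's tool, with Benjamini-Hochberg adjustment over 314 sites, an adjusted p under 0.05 and a pooled difference above 5 points. Beside it stood a quasi-binomial F test and limma on log2((methylated + 1) / (unmethylated + 1)). All were run on simulated counts with known changes, and the outcome is not given here. Pooled differences sum calls over replicates, and means and SDs use the replicates. Regions were placed by matching cytosine positions and contexts, with GENCODE vM21 annotation. The named sites are, per region, the largest and smallest pooled drop and the nearest to the transcription start, and over all regions the sites with the fewest and most calls. Other sites were named after their values were seen. The members and lists were chosen with earlier results of these data known. Alternatives were coverage minimums of 100 and 1, thresholds of 10 points and none, a non-CpG correction, unweighted and coverage-weighted means, the share scale, the replicate block and leaving out each library, also in the quasi-binomial and limma tests (added after seeing the data). Python 3.11.15, numpy 2.4.6, scipy 1.17.1, pandas 2.3.3, matplotlib 3.10.9, R 4.3.3 and limma 3.58.1 were used.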

Additional observations from a re-analysis of the deposited data

How the results depend on the processing

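The count of 40 troponin sites called lower was 26 in the quasi-binomial test and 34 in limma. Over all sites the shares were 37.6%, 19.4% and 23.2%. Same-numbered samples did not deviate together (correlations of −0.374, −0.0792 and 0.0127 over 167 sites), so the numbers were not taken as pairs. Adding the replicate block gave 40 in logistic regression and 22 in limma (13.7% of all sites). Coverage minimums of 100 and 1 gave 39 and 40, thresholds of 10 points and none gave 34 and 43, and leaving out each library gave 38 to 40. These logistic counts, with the block or without, are given without a share over all sites. Leaving out each library in the other tests, chosen after seeing the data, gave 1 to 27 in the quasi-binomial test and 16 to 34 in limma. Over all sites these tests then called 2.55% to 16.2% and 10.2% to 22.3%. The mean difference of Tnni3 region 2, −14.6 points, was −12.9 at a minimum of 100 calls and −12.4 with coverage weights, and the sites at −707, −694 and −636 bp there have few calls. The change in the gap between regions turned on the share scale, to 5.09 in Tnnt2 (exact p = 0.4) and −6.56 in Tnnc1 (exact p = 0.1). In Tnni3 it was between −4.13 and 0.182 when a library was left out, the latter without DNMT1 siRNA replicate 2. In Tnnt2 the leave-one-out range was −4.12 to −0.554 and in Tnnc1 3.70 to 4.70. Over the named sites, 13 values under an alternative lost the call and 163 stayed in direction and on the same side of the threshold, those of 2 sites never called among them. PCR copies make the counting depth an upper limit on the molecules measured.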
